A study of Mus musculus with 19 samples.

Results

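The genes described here are the 10 liver-expressed clade A serpins Serpina1a, Serpina1b, Serpina1c, Serpina1d, Serpina1e, Serpina3k, Serpina3m, Serpina3n, Serpina6 and Serpina10. They were taken by symbol from the deposited RNA-seq table, so that 10 of its 24054 genes are members. The list was drawn up with earlier results of these data known, so it is not an unselected sample. All 10 were among the 11580 genes that were tested, those whose mean over the 6 livers reached 1. RALY is an RNA-binding protein of the heterogeneous nuclear ribonucleoprotein family, and the RNA-seq experiment compared liver transcripts with and without its gene.

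The mice carried Raly flox/flox alleles on a C57BL/6 background and ate chow diet, and the methods give male as the default sex. L-RalyKO mice (n = 3) received AAV8.TBG.Cre and controls (n = 3) received AAV8.TBG.GFP, and livers were taken 4 weeks after the virus. The labels give the genotype of the controls as wild type, whereas the methods describe them as littermates with the same floxed alleles. TBG is a promoter active in hepatocytes, both groups carried a virus, and loss of Raly in the other cells of the liver was not measured. In whole liver, fewer cells of a type and less RNA per cell cannot be told apart.

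Serpins are protease inhibitors with an exposed reactive centre loop, which a target protease cleaves as if it were a substrate. The inhibitor then changes shape and traps the protease in an inactive complex, and the sequence of the loop decides which proteases are recognised. Clade A serpins are made mainly by hepatocytes and secreted into plasma. The Serpina1 genes encode mouse forms of alpha-1-antitrypsin, known in humans as the main plasma inhibitor of neutrophil elastase, whose loops differ, and Serpina3k, Serpina3m and Serpina3n belong to the mouse counterparts of human alpha-1-antichymotrypsin. Serpina6 encodes corticosteroid-binding globulin, a serpin that carries glucocorticoids and inhibits no protease, and Serpina10 encodes the inhibitor that inactivates coagulation factor Xa together with protein Z.

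Raly itself was measured at 6.34, 6.61 and 7.39 in the L-RalyKO livers and at 50.1, 48.6 and 46.8 in the controls, in scaled CPM. This unit, used for all levels below, is a read count per effective library size, not corrected for gene length. Raly fell by 2.67 on the log2 scale (SE 0.0689, adjusted p = 6.92e-07 in limma), which agrees in direction with the labels. The 6 libraries held 28302983 to 38052705 reads, and 3 reads corresponded to a value between 0.0789 and 0.105. Each member was covered by 3064 to 410430 reads per library. Counting error alone gives a coefficient of variation of 0.161% to 1.81% for them, below the spread between mice in both groups for all members but Serpina10. Among all genes tested, 389 were higher and 369 lower in L-RalyKO livers at an adjusted p under 0.05. The 7 hepatocyte markers summed to between 93547 and 95009 in L-RalyKO and between 84885 and 93482 in control livers, so that the ranges just failed to overlap, and none of the markers passed the test.

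All 10 members lie in 1 cluster on chromosome 12. It runs from chr12:104854885-105652539 (NCBIM37, mm9), a length of 798 kb, and the GENCODE annotation places 38 genes there, 27 of them with a Serpina symbol. Serpina10 (chr12:104854885-104869654) and Serpina6 (chr12:104884840-104895422) stand at the first end. The Serpina1 genes follow on the same minus strand, in the order Serpina1b (chr12:104966366-104976368), Serpina1d (chr12:105001804-105011802), Serpina1a (chr12:105091799-105104137), Serpina1c (chr12:105133136-105143097) and Serpina1e (chr12:105185141-105197185). Serpina3k (chr12:105576696-105583951), Serpina3m (chr12:105625374-105632467) and Serpina3n (chr12:105644939-105652539) stand at the other end on the plus strand. All are annotated as protein-coding.

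The Serpina1 genes are near-identical, which bears on how their reads can be told apart. Their coding sequences have the same length, 1242 bases, and were between 96.3% and 98.5% identical in pairs. Serpina1a and Serpina1c were the closest pair, with 19 differing bases, and Serpina1e differed from Serpina1b and from Serpina1d at 46 bases each. Over the coding sequence 86 positions varied among the 5 genes, and Serpina1e alone held a base of its own at 24 of them, against 19 for Serpina1d, 17 for Serpina1b, 7 for Serpina1c and 6 for Serpina1a. The 60-base stretch with the most variable positions (bases 1102 to 1161 of the coding sequence, 18 variable positions against a median of 4 over all such stretches) lies in the region that encodes the reactive centre loop. It is shown because it is where the paralogs, and the reads that separate them, differ most. The sequences are from the GENCODE transcripts on NCBIM37, read 5′ to 3′ along the transcript, and capitals mark positions at which the 5 genes are not all the same.
Serpina1a: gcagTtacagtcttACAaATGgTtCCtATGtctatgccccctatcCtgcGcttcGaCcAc
Serpina1b: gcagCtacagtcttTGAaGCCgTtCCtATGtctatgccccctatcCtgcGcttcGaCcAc
Serpina1c: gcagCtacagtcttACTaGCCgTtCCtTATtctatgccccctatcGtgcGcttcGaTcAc
Serpina1d: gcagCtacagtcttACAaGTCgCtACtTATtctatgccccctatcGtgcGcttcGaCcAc
Serpina1e: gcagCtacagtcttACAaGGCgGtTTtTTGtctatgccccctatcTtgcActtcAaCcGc
In this stretch Serpina1e differed from the other 4 genes at 10 to 12 positions and held 8 bases that none of the others has.

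The promoters of the Serpina1 genes were alike as well. RefSeq windows from 250 bases before to 50 bases after the start (GRCm38.p6, so with other coordinates than above) were matched for 6 of the 10 members, namely the Serpina1 genes and Serpina3n. The 5 Serpina1 windows shared an unbroken stretch of 55 bases, shown because it is the same in all 5 genes. Its part in their expression was not tested. Capitals mark matches to CCAAT on either strand.
Serpina1 promoters: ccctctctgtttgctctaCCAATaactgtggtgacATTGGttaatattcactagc
It lies on the minus strand, at chr12:103956960-103957014 for Serpina1e (bases -117 to -63 from the start) and at chr12:103904962-103905016 for Serpina1c (bases -66 to -12). CCAAT was found on either strand in 37.4% of the 32851 windows given for mouse genes. It stood in the 5 Serpina1 windows and not in that of Serpina3n. A match of letters is a description and not a measured binding site.

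In L-RalyKO livers 4 of the 10 members rose at an adjusted p under 0.05 (Serpina1e, Serpina3n, Serpina6 and Serpina10), and 0 of 10 fell. The number higher was 0 without L-RalyKO mouse 1 or control 1, 1 without L-RalyKO mouse 2 or control 3, and 1 with the replicate block, with all genes that had a read or without the intensity trend. Over all genes tested 3.36% were called higher and 3.19% lower. In 7 of 10 members every L-RalyKO liver was above every control, and in 0 of 10 every L-RalyKO liver was below, against 14.4% and 13.7% of all genes. In the gene lists described below, every L-RalyKO liver was above every control in 11 of 19 tested proteases and cofactors, and below in 1. These numbers were 12 and 1 of 27 for acute phase genes and 5 and 0 of 11 for plasma carriers. For the other tested Serpina genes they were 2 and 2 of 6. The median log2 fold change of the members was 0.17, beside 0.0044 over all genes tested. The counts of the members describe neighbours and near copies on 1 chromosome and not independent genes. With limma's unadjusted p under 0.05, 5 members were higher and none was lower. Fold changes below are on the log2(value + 1) scale, and a fold change of a gene with low values is understated on it.

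**Figure D1:**
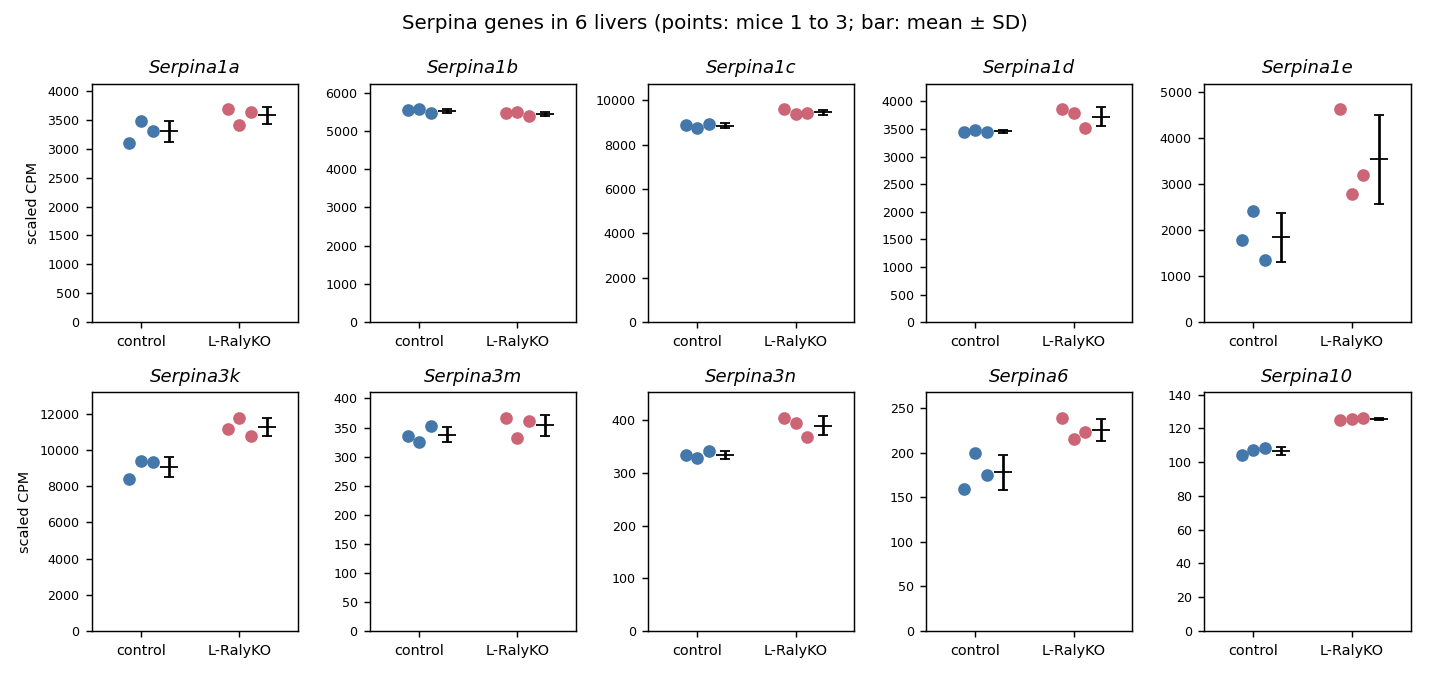
Level of each member in each liver (y axis, scaled CPM, from 0; points are single mice, and the bar is the mean ± SD of 3 mice). For Serpina1c, Serpina1d, Serpina1e, Serpina3k, Serpina3n, Serpina6 and Serpina10 all L-RalyKO points lie above all control points, and the spread within groups relative to the mean is widest for Serpina1e (27.2% and 29.1%).

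Serpina1e changed most among the members. It was measured at 4629, 2793 and 3203 in the L-RalyKO livers and at 1782, 2409 and 1342 in the controls. The groups did not overlap, but the lowest L-RalyKO liver and the highest control lay close together, and L-RalyKO mouse 1 stood well above its group. The means were 3542 ± 964 and 1844 ± 536 (SD, n = 3 each), a log2 fold change of 0.95 (SE 0.23, 95% interval 0.42 to 1.47, adjusted p = 0.0464 in limma) or 1.93-fold. The coefficient of variation between mice was 27.2% and 29.1%, against 1.05% and 1.04% for Serpina1b. The call held in 7 of 17 alternative analyses. It was lost in edgeR (adjusted p = 0.170) and DESeq2 (0.0513), and in limma without L-RalyKO mouse 1 (0.123), 2 (0.0553) or 3 (0.0923) or without control 1 (0.124) or 3 (0.0869), while the log2 fold change stayed between 0.74 and 1.16.

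The other 4 alpha-1-antitrypsin genes did not pass the test. Serpina1b was measured at 5456, 5495 and 5382 in L-RalyKO and at 5542, 5567 and 5457 in control livers, and the groups overlapped (log2 fold change -0.02, 95% interval -0.18 to 0.14, adjusted p = 0.900 in limma). Serpina1c, the most abundant of them, was measured at 9605, 9394 and 9419 and at 8890, 8747 and 8948. All 3 L-RalyKO livers were above the controls for Serpina1c, but the difference was small (log2 fold change 0.10, 95% interval -0.09 to 0.28, adjusted p = 0.521).

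Serpina1a was measured at 3687, 3417 and 3646 in L-RalyKO and 3109, 3483 and 3311 in control livers, with overlap (log2 fold change 0.12, 95% interval -0.05 to 0.29, adjusted p = 0.377 in limma). Serpina1d was measured at 3858, 3790 and 3525 in L-RalyKO and 3441, 3484 and 3444 in control livers, without overlap (log2 fold change 0.11, 95% interval -0.05 to 0.26, adjusted p = 0.392). The intervals of these 4 genes leave room for a change of at most 0.29 on the log2 scale, whereas the interval of Serpina1e begins at 0.42. None of the 4 passed in any of the 17 alternatives.

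Because reads of near copies can be exchanged when they are assigned, the 5 genes were also summed. The sum was 27235, 24889 and 25174 in L-RalyKO and 22764, 23689 and 22503 in control livers. The sum was higher in every L-RalyKO liver, with a log2 fold change of 0.16 (SE 0.11, 95% interval -0.10 to 0.42, adjusted p = 0.443 in limma), and it did not pass the test in any alternative. Without Serpina1e, the sum of the other 4 was 22606, 22096 and 21972 against 20982, 21280 and 21161, without overlap (exact permutation test, two-sided p = 0.1, the smallest that 3 against 3 mice allow). How reads were assigned among the 5 genes was not tested.

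The shares of 2 of the 5 genes in the Serpina1 reads did not overlap between the groups. Serpina1e made up 17.0%, 11.2% and 12.7% of the sum in L-RalyKO and 7.83%, 10.2% and 5.96% in control livers, with means of 13.6% ± 2.996 and 7.99% ± 2.11 (SD, n = 3 each). All L-RalyKO shares were above the control shares, by 5.66 percentage points on average (exact permutation test, two-sided, p = 0.1, the smallest possible). Serpina1b made up 20.03%, 22.1% and 21.4% in L-RalyKO and 24.3%, 23.5% and 24.3% in control livers, and all its L-RalyKO shares were lower (a difference of -2.87 points, exact p = 0.1). The shares of Serpina1a, Serpina1c and Serpina1d overlapped, with differences of -0.44, -1.77 and -0.58 points (exact p = 0.3 each). With a mouse left out the difference was between 3.99 (without L-RalyKO mouse 1) and 6.87 points for Serpina1e and between -3.33 and -2.31 for Serpina1b. It was between -0.79 (without control 1) and -0.25 (without L-RalyKO mouse 1) for Serpina1a, between -2.60 (without control 2) and -1.0004 (without L-RalyKO mouse 1) for Serpina1c, and between -0.96 (without L-RalyKO mouse 2) and -0.35 (without L-RalyKO mouse 3) for Serpina1d. Shares of 1 sum depend on each other, so a rise of 1 gene lowers the others.

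**Figure D2:**
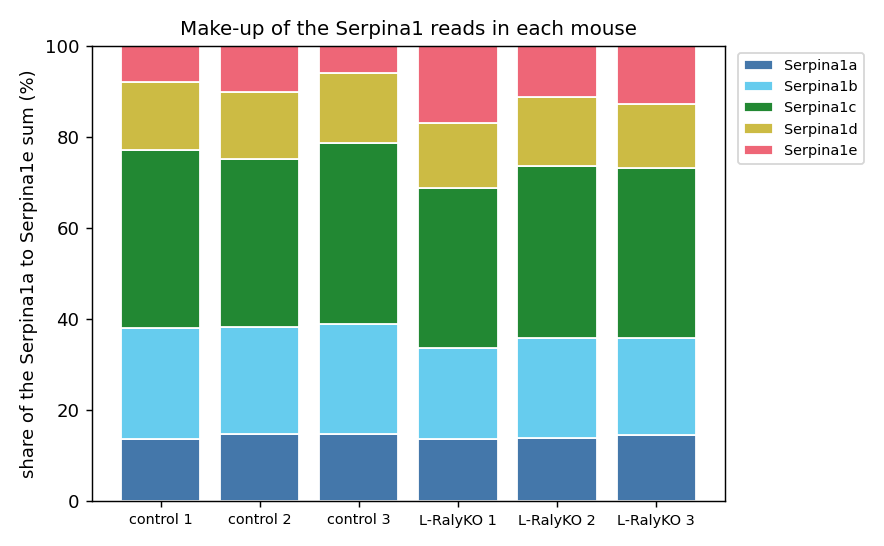
Share of each Serpina1 gene in the summed Serpina1a to Serpina1e value (y axis, percent) in each of the 6 livers (x axis). The Serpina1e segment at the top takes 5.96% to 10.2% in controls and 11.2% to 17.0% in L-RalyKO livers, and Serpina1c is the largest segment in every liver.

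How far the reads of a gene can be assigned to it was read from the annotated transcripts. Of all 150-base words in the Serpina1c transcripts 50.5% also occurred in transcripts of another gene, mostly Serpina1a, and the share was 28.1% for Serpina1a, 21.2% for Serpina1b, 20.2% for Serpina1d and 7.36% for Serpina1e. With words of 50 bases the shares were 73.3%, 42.8%, 45.0%, 48.0% and 33.7% in the same order. Serpina1e thus had the smallest shared part of the 5 on both lengths. For Serpina3k, Serpina3m and Serpina3n it was 17.1%, 19.1% and 6.75% with words of 50 bases and at most 0.332% with words of 150 bases, and Serpina6 and Serpina10 shared none. How reads that fit several genes were treated is not given in the sources used here, so the levels of single Serpina1 genes are uncertain, that of Serpina1c above all. A transcript on the other strand, B430119L08Rik, overlaps Serpina1c and is not a row of the table, and whether counting used the strand is not given either.

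Among the 3 alpha-1-antichymotrypsin counterparts, Serpina3n rose, Serpina3k was higher by a larger fold without passing the test, and Serpina3m overlapped between groups. Serpina3n, an inhibitor of granzyme B and other serine proteases that is induced in the acute phase response, was measured at 404, 395 and 369 in L-RalyKO and 333, 328 and 342 in control livers. All L-RalyKO values were above all control values, with means of 389 ± 18.4 and 334 ± 7.46 (SD, n = 3 each). The log2 fold change was 0.22 (SE 0.051, 95% interval 0.10 to 0.34, adjusted p = 0.0429 in limma), or 1.16-fold. The call held in 8 of 17 alternatives. Without L-RalyKO mouse 1 or 2 the adjusted p was 0.151 or 0.116, without control 1, 2 or 3 it was 0.114, 0.112 or 0.0507, and without L-RalyKO mouse 3 it was 0.0413.

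Serpina3k, the most abundant of all members by reads, is also known as contrapsin and kallikrein-binding protein. It was measured at 11188, 11782 and 10800 in L-RalyKO and 8423, 9378 and 9358 in control livers. The groups did not overlap, with means of 11257 ± 495 and 9053 ± 546 (SD, n = 3 each). The log2 fold change was 0.32 (SE 0.092, 95% interval 0.11 to 0.52, adjusted p = 0.0802 in limma), or 1.24-fold. On the recovered reads it passed in limma voom (adjusted p = 0.0239), edgeR (0.0320) and DESeq2 (0.000140), and it passed in limma without the intensity trend (0.0498). Serpina3m was measured at 367, 332 and 362 in L-RalyKO and 335, 326 and 352 in control livers, with overlap (log2 fold change 0.06, 95% interval -0.06 to 0.19, adjusted p = 0.542 in limma). Summed over the 3 genes, 11959, 12509 and 11530 stood against 9092, 10032 and 10053, a log2 fold change of 0.30 (95% interval 0.09 to 0.52, adjusted p = 0.0960 in limma, and 0.0254 in limma voom, 0.0344 in edgeR and 0.000171 in DESeq2). Serpina3k made up nearly all of this sum. Its coding sequence was 91.7% identical to that of Serpina3m and 83.4% to that of Serpina3n, and 58.8% to that of Serpina1a.

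Serpina6, the gene of corticosteroid-binding globulin, was measured at 239, 215 and 223 in L-RalyKO and 160, 199 and 175 in control livers. Every L-RalyKO liver was above every control, and control 1 was the lowest of the 6. The means were 226 ± 12.2 and 178 ± 19.8 (SD, n = 3 each), and Serpina6 rose by 0.35 on the log2 scale (SE 0.081, 95% interval 0.16 to 0.53, adjusted p = 0.0411 in limma), or 1.27-fold. The call held in 9 of 17 alternatives. It was lost without L-RalyKO mouse 1 (0.134), 2 (0.0717) or 3 (0.0932) and without control 1 (0.108) or 3 (0.0785), and without control 2 the adjusted p was 0.0171. With all 6 livers the call was also lost in limma with all genes that had a read (0.0759), without the intensity trend (0.0802) and with the replicate block.

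Serpina10, the inhibitor that works with protein Z, had the smallest adjusted p of the members. It was measured at 125.2, 125.6 and 126.1 in L-RalyKO and 104.1, 107.4 and 108.1 in control livers. The gap between the groups was wider than the range within either of them. The coefficient of variation was 0.392% in L-RalyKO and 2.02% in control livers, and counting error alone gives 1.52% and 1.81% in the shallowest library of each, so the L-RalyKO livers lay closer together than counting allows on average. The log2 fold change was 0.24 (SE 0.043, 95% interval 0.14 to 0.33, adjusted p = 0.0158 in limma), or 1.18-fold. The call held in 14 of 17 alternatives, and was lost without L-RalyKO mouse 1 (0.0620) or control 1 (0.0592) and, by a small margin, without the intensity trend (0.0501). No member changed its direction in any alternative.

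**Figure D3:**
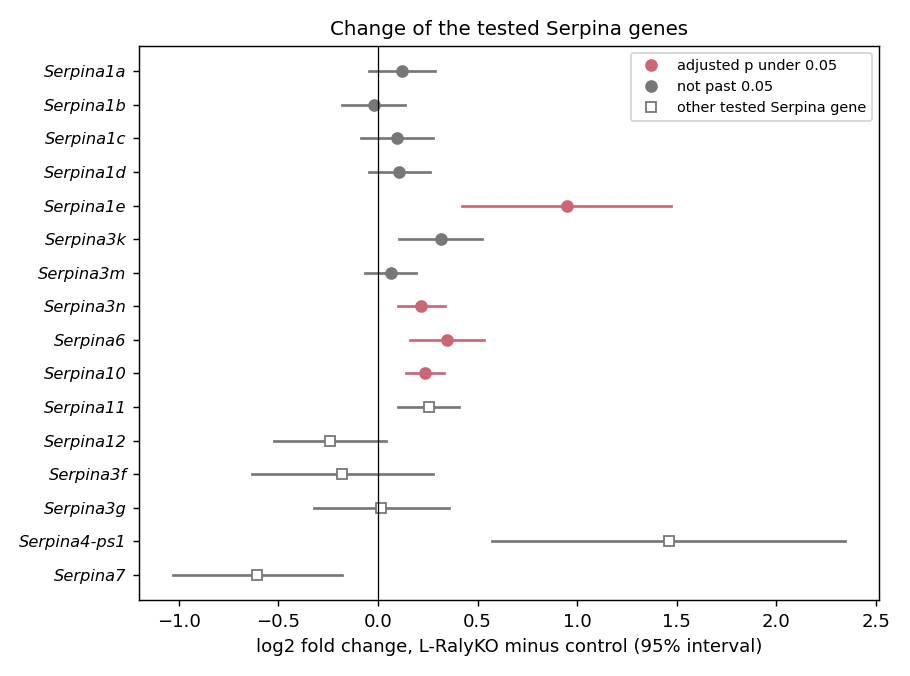
Log2 fold change of L-RalyKO minus control with its 95% interval in limma (x axis) for the 10 members (circles) and the 6 other tested genes with a Serpina symbol (squares), red where the adjusted p was under 0.05. Serpina1e stands at 0.95 with a wide interval, Serpina3n, Serpina6 and Serpina10 between 0.22 and 0.35 with narrow ones, and Serpina1b at -0.02.

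Together the members took 3.70% to 3.84% of all values in the L-RalyKO livers and 3.27% to 3.43% in the controls. The Serpina1 genes accounted for 2.48% to 2.65% against 2.24% to 2.39%, and Serpina3k alone for 1.08% to 1.17% against 0.870% to 0.945%. None of these ranges overlapped.

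Levels between genes were compared per kilobase of coding length. In the controls the median level was 7445 scaled CPM per kilobase for Serpina3k and 7158 for Serpina1c, and these overlapped between mice. Serpina1b followed with 4462, then Serpina1d with 2773 and Serpina1a with 2666, whose ranges overlapped, and Serpina1e with 1435. A wide step separated these from Serpina3m with 267 and Serpina3n with 265, which overlapped, Serpina6 with 146 and Serpina10 with 79.8. In the L-RalyKO livers the order by coding length was the same except that Serpina3n, with 314, stood above Serpina3m, with 288. By the length of all annotated exons Serpina1c (6532 in controls) stood above Serpina3k (5658), and the control ranges of Serpina1a and Serpina1e overlapped. In the L-RalyKO livers on this scale Serpina1e (1727 to 2863) stood above Serpina1a (1509 to 1629) without overlap.

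Over the 6 livers, the members did not all follow each other. The Pearson correlation of log2(value + 1) between Serpina1e and Serpina6 was 0.91, and between Serpina3k and Serpina10 it was 0.96, whereas between Serpina1e and Serpina1b it was -0.33. The 6 points fall into the 2 groups, which alone can give such values, so they are given as a description without a test. The non-member genes most like Serpina1e on this measure were Enho (0.996), Tm2d1 (0.995), Mocs1 (0.994), Lrrc56 (0.993) and Taf8 (0.992). Their log2 fold changes were 0.90, 0.145, 0.040, 0.145 and 0.21, and none passed the test. Those most like Serpina3n were Gabbr2 (0.999), Tapbp (0.996), Clcc1 (0.996), Pigo (0.995) and Foxa2 (0.994). Their log2 fold changes were 0.42, 0.15, 0.15, 0.084 and 0.86, and only Gabbr2 and Foxa2 passed. All were picked as the highest correlations among the genes tested, so high values were selected for.

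The remaining 15 rows with a Serpina symbol held 6 tested genes, of which 0 were called in either direction by limma. At an unadjusted p under 0.05, 2 of them were higher and 1 was lower, and DESeq2 called 1 higher. Serpina11, whose gene follows Serpina1e along the cluster, was 63.3 ± 2.09 in L-RalyKO and 53.0 ± 4.41 in control livers (SD, n = 3 each), with no overlap (log2 fold change 0.26, adjusted p = 0.0594 in limma). The pseudogene Serpina4-ps1 was measured at 86.3, 114 and 81.8 in L-RalyKO and 28.2, 18.5 and 69.5 in control livers, also without overlap. Its log2 fold change of 1.46 had an adjusted p of 0.0623 in limma, and of 0.00174 without control 3, the highest control. Serpina12, the adipokine vaspin, was measured at 25.3, 17.9 and 25.6 against 28.4, 26.1 and 26.4, so every L-RalyKO liver was below every control (log2 fold change -0.24, adjusted p = 0.293 in limma, and -0.078 without L-RalyKO mouse 2). Serpina3f and Serpina3g had values under 6 and log2 fold changes of -0.18 and 0.02 (adjusted p = 0.651 and 0.960), and the sign of both depended on single mice. Serpina7, which encodes thyroxine-binding globulin and lies on chromosome X, was measured at 35.4, 51.0 and 54.0 in L-RalyKO and 89.7, 56.8 and 69.0 in control livers. All its L-RalyKO values were below all control values (log2 fold change -0.61, 95% interval -1.03 to -0.18, adjusted p = 0.0932 in limma). The other 9 rows, Serpina1f with no read in any liver among them, were too low to be tested.

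**Figure D4:**
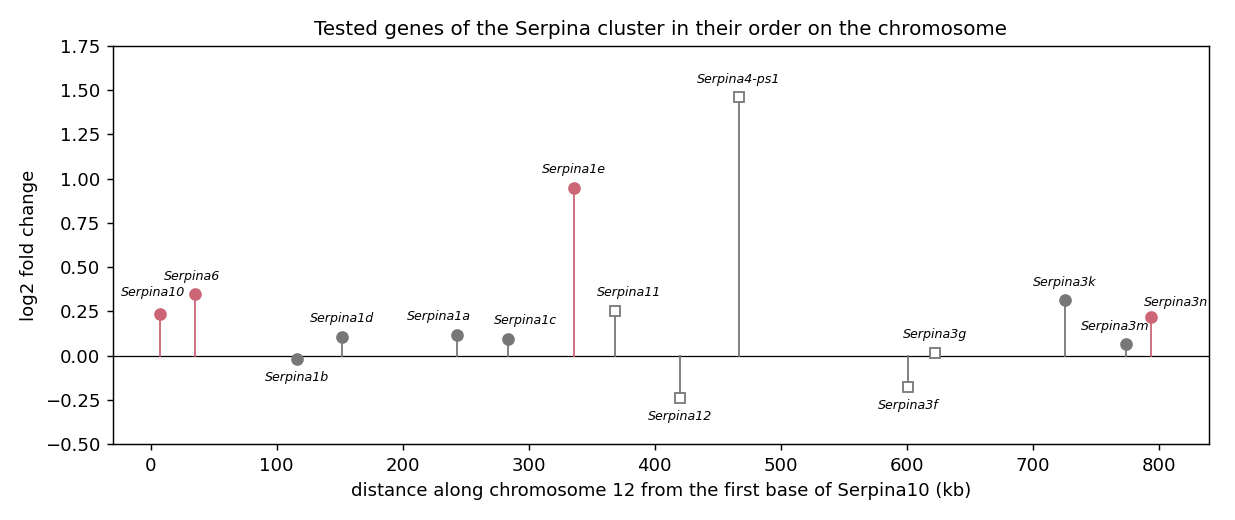
Log2 fold change (y axis) of the 15 tested genes of the chromosome 12 cluster against their distance from the first base of Serpina10 (x axis, kb), with members as circles, other genes as squares, and an adjusted p under 0.05 in red. Values above 0.9 are those of Serpina1e and Serpina4-ps1, and the other 13 lie between -0.24 and 0.35.

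Called genes stood at both ends of the cluster and in its middle. Serpina10 and Serpina6 at the first end rose, the next 4 members (Serpina1b, Serpina1d, Serpina1a and Serpina1c) did not pass the test, and Serpina1e beside them rose. The next 7 tested genes (Serpina11, Serpina12, Serpina4-ps1, Serpina3f, Serpina3g, Serpina3k and Serpina3m) did not pass, and Serpina3n at the far end rose. Of the cluster, 24 genes were rows of the deposited values and 15 were tested. Ppp4r4, the next gene outside the cluster before Serpina10, was at 0.15 on the log2 scale (adjusted p = 0.345 in limma).

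Serpins of the other clades filled 38 rows, 13 of them tested, of which 1 was called higher and 1 lower. Serpine2, the protease nexin that inhibits thrombin and plasminogen activators, rose from 17.5 ± 3.44 to 28.9 ± 4.33 (SD, n = 3 each, log2 fold change 0.70, adjusted p = 0.0245 in limma, 0.0578 in edgeR). Without L-RalyKO mouse 1 or 2, or control 1 or 2, its adjusted p was 0.0761, 0.0510, 0.0663 or 0.0629. Serpinb1a, an intracellular inhibitor of neutrophil proteases, fell from 7.84 ± 2.20 to 1.99 ± 0.361 (log2 fold change -1.54, adjusted p = 0.00211 in limma), and kept its call without any single mouse. The plasma serpins Serpinc1 (antithrombin), Serpind1 (heparin cofactor II), Serpinf1, Serpinf2 (alpha-2-antiplasmin) and Serping1 (C1 inhibitor), which are made in the liver like the members, had log2 fold changes of -0.01, 0.04, 0.06, -0.04 and 0.11 and none passed the test.

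The other parts of the pathway were read from gene lists. Of 26 proteases and cofactors with a row, 19 were tested, 3 rose and 0 fell, with a median log2 fold change of 0.12. These were Pros1 (protein S, 77.0 ± 1.79 against 57.1 ± 4.40, log2 fold change 0.43, adjusted p = 0.00666 in limma), F11 (coagulation factor XI, 0.49, 0.01004) and Habp2 (a plasma protease that activates factor VII, 0.28, 0.0185, and 0.0740, 0.0543 and 0.0663 without L-RalyKO mouse 1, L-RalyKO mouse 2 or control 1). DESeq2 called 5 of this list higher, and without control 3 limma called 1 lower. Protein Z, Proz, the cofactor of Serpina10, was at 0.12 on the log2 scale (95% interval -0.0023 to 0.24, adjusted p = 0.229). Of the 29 folding and secretion genes 0 passed in either direction in limma, with 5 higher and 1 lower at an unadjusted p under 0.05, and Lman1, which encodes the cargo receptor for alpha-1-antitrypsin in the endoplasmic reticulum, was at 0.07 (adjusted p = 0.460). Of these genes limma called 3 higher without L-RalyKO mouse 2, 1 higher without control 2 and 1 lower with total read scaling, edgeR called 0, and DESeq2 called 1 higher and 1 lower. Of 11 tested plasma carriers, such as albumin and transferrin, 0 passed in limma, 4 were higher and 0 lower at an unadjusted p under 0.05, and the median was 0.08, while edgeR called 0, DESeq2 called 3 higher and limma without control 2 called 1 higher.

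Of 20 tested transcription factors known to act on liver genes, 4 rose and 0 fell. Without L-RalyKO mouse 1, control 1, control 2 or control 3 the number higher was 2, 1, 2 or 6, and 2 were lower in edgeR, in DESeq2, with total read scaling and without control 3. Hnf4a, a nuclear receptor that maintains hepatocyte expression, was 846 ± 47.8 in L-RalyKO and 581 ± 86.8 in control livers (SD, n = 3 each, log2 fold change 0.55, adjusted p = 0.0155 in limma). Without L-RalyKO mouse 1, control 1 or control 2 the adjusted p of Hnf4a was 0.0614, 0.0510 or 0.0507. Foxa2 rose by 0.86 on the log2 scale (adjusted p = 0.0126 in limma, 0.0501 without control 1) and the xenobiotic receptor Nr1i2 by 0.33 (0.00725). Stat3, which relays interleukin 6 signals, rose by 0.21 (adjusted p = 0.0372 in limma). Without L-RalyKO mouse 1, 2 or 3 or control 1 or 2, the adjusted p of Stat3 was 0.134, 0.0956, 0.0630, 0.117 or 0.0892.

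Serpina3n and the Serpina1 genes are usually counted among acute phase genes. Of the 27 other acute phase genes on the list, all tested, 5 rose and 0 fell, with a median log2 fold change of 0.14. The number higher was 3 without L-RalyKO mouse 1 or 2 or control 1 or 2, and 8 in DESeq2. Those with the smallest p were the receptors Il1r1 (97.3 ± 15.3 against 30.1 ± 6.43, log2 fold change 1.67, adjusted p = 0.00123 in limma) and Il6ra (0.74, 0.00566), the serum amyloid gene Saa1 (22.6 ± 1.77 against 12.8 ± 2.80, 0.79, 0.0118) and Orm1 (370 ± 7.68 against 311 ± 8.61, 0.25, 0.0173). Orm1 lost its call when any mouse but control 3 was left out (adjusted p of 0.0518 to 0.0607 in limma). Serpina6 is the plasma carrier of the ligand of the glucocorticoid receptor, and of 20 tested glucocorticoid genes 7 rose and 1 fell. The number lower was 3 with total read scaling, with the replicate block and without L-RalyKO mouse 3, and 2 in DESeq2, and the number higher was 5 to 7 over all alternatives. Zbtb16 (93.9 ± 10.4 against 9.90 ± 2.92, log2 fold change 3.15, adjusted p = 0.000119 in limma), Klf9 (0.79, 0.000881), Pck1 (0.78, 0.00312) and Mt1 (1.003, 0.00343) led them, and Nr3c1, the receptor, was at 0.01 (0.945), a sign that turned under some alternatives. Of 15 tested growth hormone genes, a pathway to which the Serpina1 genes are known to respond, 1 rose and 1 fell, with 4 higher and 2 lower without control 3, 2 higher without L-RalyKO mouse 1 and 2 higher with the replicate block. In edgeR 0 were higher and 2 lower, in DESeq2 1 was higher and 3 were lower, and 0 were lower without L-RalyKO mouse 1, L-RalyKO mouse 3 or control 2, without the intensity trend and with all genes that had a read. Cish rose by 2.18 (adjusted p = 0.00981 in limma, 0.0968 in edgeR). Stat5b fell by 0.35 on the log2 scale (0.0346 in limma), and without L-RalyKO mouse 1 or 3, or control 2 or 3, its adjusted p was 0.110, 0.0984, 0.0822 or 0.0630.

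Markers of other cells were read beside these results. The 8 neutrophil genes with a row summed to between 0.342 and 0.873 in L-RalyKO and between 0.507 and 0.982 in control livers, and none reached the level for testing. Kupffer cell and macrophage markers summed to between 137 and 176 against between 131 and 195, endothelial markers to between 154 and 194 against between 176 and 185, and stellate cell markers to between 211 and 278 against between 220 and 245, all overlapping, and none of these markers was called. Cholangiocyte markers summed to between 32.3 and 41.2 against between 32.6 and 34.8, lymphocyte markers to between 6.30 and 8.81 against between 7.93 and 9.71, and pancreas markers to between 6.38 and 11.6 against between 6.68 and 7.26, with Prss2, Cpa1 and Pnlip at 0 in all livers. Adipocyte markers summed to between 5.60 and 5.99 in L-RalyKO and between 7.85 and 20.7 in control livers, without overlap, and 1 of the 2 tested, Cfd, fell by 2.10 on the log2 scale (adjusted p = 0.0318 in limma). The part of this difference in the results for the members was not tested.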

How the data were processed

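The RNA-seq libraries of 3 L-RalyKO and 3 control livers were used, and ATAC-seq and ChIP-seq were not analysed here. Libraries were made with the KAPA Stranded kit. The methods name TopHat v2.0.2 on mm9 and Cufflinks 2.0.2 with FPKM values. The values the authors deposited are another unit, a normalized signal of read counts per gene divided by the effective size of each library (scaled CPM). In each library 100% of the values were whole multiples of the value of 1 read (tolerance 0.01), and the scaling factors were those of TMM computed anew with edgeR. How the authors assigned reads that fit several genes is not given in the sources used here.

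The test was limma 3.58.1 (R 4.3.3, two-sided), fitted to log2(value + 1) using the trend of variance with intensity. It covered the 11580 genes whose mean reached 1, and p was adjusted over all of them by the Benjamini-Hochberg method. limma voom, edgeR 4.0.16 and DESeq2 1.42.0 on the recovered reads were alternatives, as were other scalings, filters, a pseudocount of 0.1, a replicate block and leaving out each mouse. The fits were tested on simulated data. Exact permutation tests of 3 against 3 mice cannot give a p under 0.1. Each library was taken as 1 mouse, as the labels number them, and p-values measure the spread between these samples. Livers of 1 group differed beyond counting noise (chi-square over its degrees of freedom was 13.3 to 89.3). For all members but Serpina10 the spread between mice exceeded counting error in both groups, and counting error alone was not used for any test.

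Gene positions and coding sequences came from GENCODE vM1 on NCBIM37 and promoter windows from RefSeq on GRCm38.p6. The genes named are Raly, the members, all other tested Serpina genes, the genes most like 2 of the members, and from each list the called genes with the smallest p (at most 4) and 1 key gene, while the other plasma serpins were picked after their values were seen. Some genes that this rule names are not reported here. The members and lists were chosen with earlier results of these data known.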

Additional observations from a re-analysis of the deposited data

How the results depend on the processing

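Beside the 4 members called higher, the number called was 1 with a 1.5-fold minimum (Serpina1e), 1 with all genes that had a read and 1 with a replicate block (Serpina10 in both), and 1 without the intensity trend (Serpina3k, which is not among the 4). edgeR and DESeq2 called 4 each, with Serpina3k and without Serpina1e, limma voom called 5, and total read scaling 3. With a mouse left out, members called higher ranged from 0 to 3, all genes called higher from 168 to 454 and lower from 167 to 358, other clade A serpins higher from 0 to 1, other serpins higher from 0 to 1 and lower from 1 to 2, and genes called in the pathway lists from 14 to 31. Nothing in the labels or methods pairs the same-numbered mice, their deviations correlated at 0.066, -0.024 and 0.020, and the replicate block gave 353 genes higher and 351 lower and called 0 of the other serpins higher. With all genes that had a read 254 were higher and 230 lower, and 0 other serpins were higher. With a mean value of at least 5, 0 other serpins were lower, because Serpinb1a was then not tested. It kept its call in all 16 alternatives that tested it. edgeR called 774 genes in all and 0 other serpins higher, and DESeq2 called 538 higher and 546 lower, with 1 other clade A serpin higher (Serpina11), 2 other serpins lower and 37 genes in the pathway lists. Total read scaling gave 325 higher and 470 lower, and a median log2 fold change of -0.027 over all genes. The summed Serpina3 genes passed with log2 fold changes of 0.30 in limma voom, 0.30 in edgeR and 0.30 in DESeq2. Genes near 0 changed sign. Serpina3g was at -0.011 with total read scaling and between -0.10 and 0.15 with a mouse left out, Serpina3f between -0.34 and 0.030, Serpinc1 between -0.033 and 0.031, Serpinh1 between -0.050 and 0.20, and Nr3c1 at -0.024 with total read scaling and between -0.049 and 0.047. Apart from fewer mice, or more or fewer genes tested, the cause of these changes was not tested.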
